A study of Mus musculus with 12 samples.

Results

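The hypothalamus of mice carrying a model of diabetes was compared with that of control mice, over 7 of the 12 RNA sequencing libraries of the study. The members are the 4 libraries whose titles name a diabetic hypothalamus and the 3 whose titles name a control hypothalamus, with every gene of the deposited count table, 78334 gene IDs in all. Of these, 25562 had enough counts to be tested. All mice were C57BL/6 males. The diabetes mice had a single streptozotocin injection (70 mg/kg) on postnatal day 2 and then a high-fat diet with 60% of its energy from fat for 8 weeks from 3 weeks of age. The control mice ate a standard diet. Both groups were gavaged with vehicle, which was given daily for 28 days. The sources used here disagree on the start of gavage, placing it at week 7 of the diet or after 11 weeks. Injection and diet always came together, so their parts in any difference cannot be told apart. The labels do not say that each library came from a separate animal, so the p-values rest on a spread among libraries that may in part be technical. The other 5 libraries, from diabetes mice given curcumin (n = 3) or aged garlic extract (n = 2), entered the model but not the contrast. They took part in the low-count filter, the scaling and the estimate of the spread. The library labelled curcumin replicate 2 stood apart, with Pmch at 0.45, Avp at 0.35 and Nkx2-1 at 0.05 CPM (counts relative to the scaled library size) and no count of Hcrt, all genes that mark hypothalamus. It enters that spread, and without it 91 genes passed as higher in diabetes and 11 as lower.

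The hypothalamus holds the neurons that set appetite, fluid balance, body temperature and the release of pituitary hormones. Its arcuate nucleus reads insulin and leptin from the blood and answers through peptide neurons, those that make Pomc products and Cart lowering food intake and those that make Agrp and Npy raising it. Streptozotocin enters pancreatic beta cells through a glucose transporter and kills them, so that insulin is short, and a fatty diet adds resistance to the insulin that is left. The comparison asks which hypothalamic transcripts differ in mice treated this way.

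Of the 25562 genes, 4 rose in diabetes (0.0156%) and 0 fell (0%) at an adjusted p under 0.05 by edgeR's quasi-likelihood test. Before adjustment, 1224 genes (4.79%) had p under 0.05 with the higher level in diabetes and 1913 (7.48%) with the lower. Among the 17548 genes that average at least 1 CPM the order was reversed, with 1170 higher (6.67%) and 953 lower (5.43%). Levels are given as CPM, counts relative to the scaled size of the library, and changes as log2 of diabetes over control. Among the lower genes the smallest adjusted p was 0.0791. The 4 that rose were Junb, Rps2, S100a1 and Rpl34-ps1.

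Junb (ENSMUSG00000052837) encodes a subunit of AP-1, the transcription factor that neurons make within minutes of being excited. Its level was 20.8, 24.4 and 21.2 CPM in control replicates 1 to 3 and 74.9, 109, 67.6 and 100.1 CPM in diabetes replicates 1 to 4. Every diabetes library stood above every control library, and the 3 controls lay close together. The log2 change was 1.99 ± 0.30 (SE), with an adjusted p of 0.0325 by edgeR.

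S100a1 (ENSMUSG00000044080) encodes a small calcium-binding protein that acts on calcium release channels and on proteins of the cytoskeleton. It was at 47.8, 51.2 and 32 CPM in the controls and at 152, 110, 167 and 189 CPM in diabetes. The groups did not overlap, with diabetes replicate 2 the lowest of its group. The log2 change was 1.82 ± 0.28 (edgeR adjusted p = 0.0325).

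Rps2 (ENSMUSG00000044533) encodes a protein of the small ribosomal subunit, close to the path of the messenger RNA. It was at 60.9, 62.3 and 71.0 CPM in the controls and at 185, 162, 231 and 168 CPM in diabetes. The change was 1.53 ± 0.23 on the log2 scale (edgeR adjusted p = 0.0325), again without overlap. Rpl34-ps1 (ENSMUSG00000068396) is a pseudogene of a protein of the large subunit and stood at 112, 146 and 123 CPM against 405, 267, 366 and 389 CPM, a log2 change of 1.49 ± 0.24 (edgeR adjusted p = 0.0460). Reads of ribosomal protein genes and of their many processed copies may be assigned to either, as the handling of reads that map to several places is not given in the sources used here, so both values are uncertain.

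In the 12-library model, none of these genes passed by edgeR when any 1 of the 7 libraries was left out. Omission of a control library, or of diabetes replicate 1, 2 or 3, left 0 genes in either direction (1903 to 3757 had p under 0.05 before adjustment), and omission of diabetes replicate 4 left 1 other gene, an ID with no symbol. With only the 7 libraries in the fit, all 4 genes passed, and they still did without control replicate 3 or without diabetes replicate 1, 2 or 4. In that fit 2 of the 4 passed without diabetes replicate 3, and 0 of the 4 without control replicate 1 or 2.

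The promoters of 3 of the 4 genes were in the RefSeq table (GRCm38.p6). They are shown because these genes were the ones that rose, and to let their sequence be read beside the values above. Each window runs from 250 bases before to 50 bases after the annotated start, 5′ to 3′ on the gene's strand. Capitals mark matches on either strand to 4 motifs. The core of the cyclic AMP response element was searched as TGACG, the box bound by the general factor TBP as TATAAA, the box bound by NF-Y as CCAAT and the box bound by Sp1 as GGGCGG. The windows are Junb at chr8:84978699-84978998 on the minus strand, Rps2 at chr17:24719813-24720112 on the plus strand and S100a1 at chr3:90514281-90514580 on the minus strand.
Junb: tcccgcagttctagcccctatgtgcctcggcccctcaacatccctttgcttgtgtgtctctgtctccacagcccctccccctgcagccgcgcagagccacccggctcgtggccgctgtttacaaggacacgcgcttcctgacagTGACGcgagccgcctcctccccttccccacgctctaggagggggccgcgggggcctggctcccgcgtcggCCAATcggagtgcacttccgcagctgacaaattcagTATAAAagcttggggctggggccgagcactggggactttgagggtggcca
Rps2: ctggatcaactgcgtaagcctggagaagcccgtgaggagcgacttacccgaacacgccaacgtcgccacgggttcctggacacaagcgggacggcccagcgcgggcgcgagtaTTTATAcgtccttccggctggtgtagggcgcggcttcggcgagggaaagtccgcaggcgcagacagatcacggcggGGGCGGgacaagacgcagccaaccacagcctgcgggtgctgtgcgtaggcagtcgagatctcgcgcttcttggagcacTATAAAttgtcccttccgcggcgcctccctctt
S100a1: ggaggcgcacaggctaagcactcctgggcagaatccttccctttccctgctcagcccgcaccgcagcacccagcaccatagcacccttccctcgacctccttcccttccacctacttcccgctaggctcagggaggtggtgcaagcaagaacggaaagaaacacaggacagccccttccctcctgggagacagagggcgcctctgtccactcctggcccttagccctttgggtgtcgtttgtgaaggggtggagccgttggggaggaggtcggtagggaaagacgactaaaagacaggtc
The Junb window held TGACG starting 106 bases and CCAAT starting 36 bases before the annotated start, and TATAAA at the start itself. The Rps2 window held GGGCGG 61 bases before the start and TATAAA or its reverse complement at 137 bases before it and at position 18 after it. The S100a1 window held none of the 4 motifs. Of 32851 windows of this length in the table, 20.81% held TGACG, 13.62% TATAAA, 37.41% CCAAT and 35.66% GGGCGG, so these matches are common and no motif was shared by all 3 windows.

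**Figure D1:**
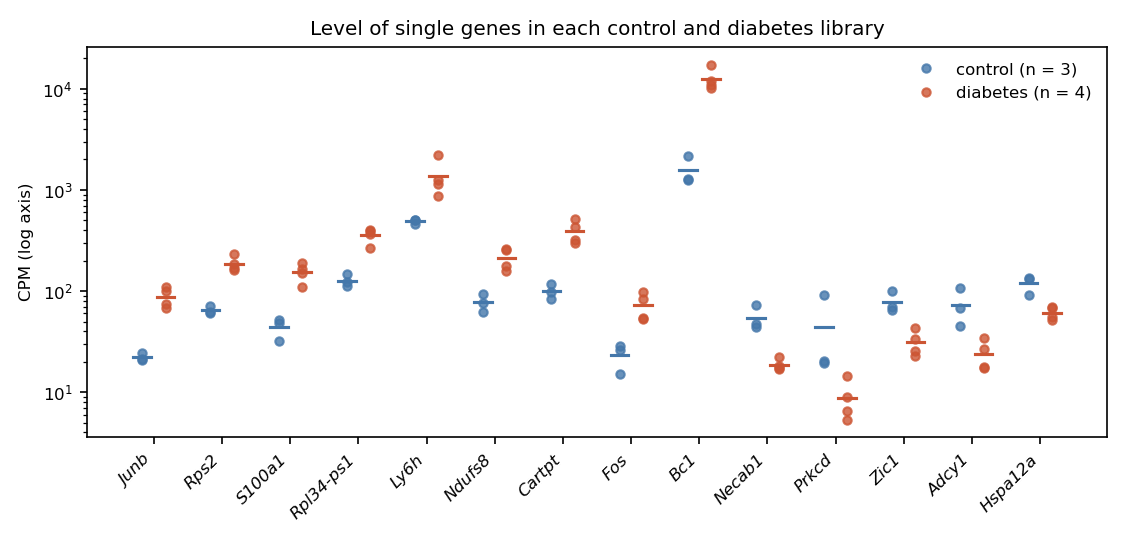
CPM on a log axis of 14 genes in each library, with 1 point per library (control n = 3, diabetes n = 4) and a line at each group's mean. The 4 genes at the left passed the test, and in every gene drawn the 2 groups do not overlap. The genes were picked from those described in the text and do not stand for all genes tested. Of those, 5.78% were higher and 8.94% lower without overlap.

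Pmch, Avp, Nkx2-1, Hcrt and Pomc, all made in the hypothalamus, had counts in all 7 libraries. Agrp, another gene of the hypothalamus, had counts in every control library but none in any diabetes library, as given below. Pmch, the melanin-concentrating hormone of the lateral hypothalamus, was at 223 to 345 CPM in control and 295 to 670 CPM in diabetes. Vasopressin (Avp) was at 450 to 742 CPM in control and 705 to 1846 CPM in diabetes, and the hypothalamic transcription factor Nkx2-1 at 33.98 to 38.4 and 30.0 to 56.8 CPM. Total counts ran from 17575625 to 23470800 in control and from 12950017 to 30271706 in diabetes. Across the 25562 genes tested, log2 levels correlated at 0.927 to 0.957 between control libraries and at 0.871 to 0.896 between diabetes libraries. These genes include those that average less than 1 CPM, and they are not independent of each other.

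The diabetes libraries also differed from control in how many genes they registered. At the depth of the shallowest library, 33157, 25766 and 28474 genes were expected with at least 1 count in the controls, against 20474, 22515, 20133 and 20699 in diabetes. All 4 diabetes libraries were below all 3 controls (exact permutation test, two-sided, p = 0.0571, the smallest that 3 against 4 libraries allow, adjusted p = 0.0914 over 8 library properties). With 10 or more counts as the limit and no adjustment for depth, 20701 to 21108 genes were found in control and 17939 to 20900 in diabetes, and these ranges overlapped (exact permutation p = 0.171).

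The difference lay among genes with few reads. Genes with 1 to 9 counts numbered 15779, 5278 and 8067 in the control libraries and 1245, 1765, 2194 and 1195 in diabetes. For each gene with 2 to 9 counts, there were 0.397, 0.998 and 0.632 genes with 10 to 29 counts in control and 3.34, 3.43, 2.07 and 4.21 in diabetes. In diabetes the number of genes fell from 1 count to a dip at 8, 4, 3 and 4 counts, then climbed to a second peak at 25, 11, 11 and 17 counts. Of the controls, only replicate 2 had such a second peak, at 5 counts. What set the number of genes at low counts was not tested.

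**Figure D2:**
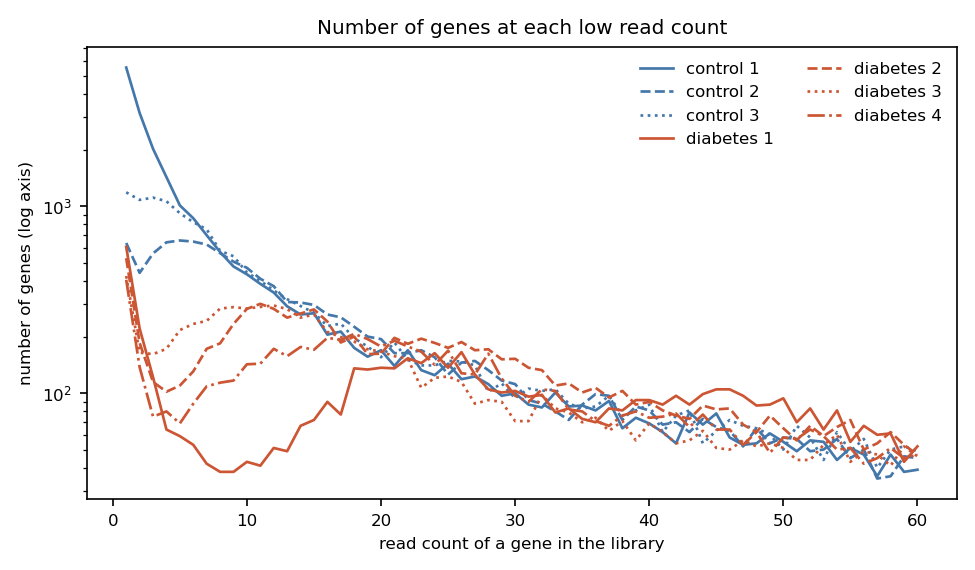
Number of genes (log axis) at each read count from 1 to 60 in the 3 control and 4 diabetes libraries. The diabetes lines dip at 3 to 8 counts and peak again at 11 to 25, whereas control replicate 1 falls steadily.

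Of the 25562 tested genes, 1273 had a count of 0 in every diabetes library, and 218 did in every control library. Of the 1273, only 98 had at least 10 counts in every control library. Such genes could be tested only through counts in other libraries. Tal1, a transcription factor of blood and of some midbrain and hindbrain neurons, was at 2.24, 1.11 and 1.41 CPM in the controls and at 0 in all 4 diabetes libraries. Agrp, the appetite-raising peptide of the arcuate nucleus, named after its values were seen, was at 0.338, 2.05 and 0.317 CPM in the controls and at 0 in all 4 diabetes libraries. Npy, made by the same neurons, was at 22.9, 6.96 and 58.5 CPM against 11.9, 24.7, 27.4 and 46 CPM, with the groups overlapping. Against a floor of 3 counts over the 4 diabetes libraries, Tal1 was at least 41.8-fold lower and Agrp at least 20.9-fold lower, bounds that cover counting error only. The diabetes libraries held few genes at low counts, and these folds cannot be told apart from that difference.

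A further difference ran along the whole transcriptome. Protein-coding genes that average at least 1 CPM were split into 5 bins of equal number by the length of their longest annotated transcript. Among the 2816 shortest, of 204 to 2034 bases, 654 were higher and 8 lower in diabetes at an unadjusted p under 0.05, and their median log2 change was 0.44. Among the 2813 longest, of at least 5390 bases, 10 were higher and 525 lower, with a median of -0.37. The bins between them had medians of 0.10, -0.08 and -0.20, in order of length. Over all tested genes the median was -0.07.

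The gradient was present in each diabetes library, and was steepest in replicates 3 and 4. The bin of shortest genes deviated from the mean of the 12 libraries by a median of 0.26, 0.18, 0.56 and 0.50 log2 units in diabetes replicates 1 to 4, and by -0.09, -0.09 and 0.04 in the controls. The bin of longest genes deviated by -0.11, -0.16, -0.38 and -0.35 in diabetes and by 0.26, 0.13 and 0.00 in the controls. The transcript length at the middle of a library's counts was 3633, 3519 and 3354 bases in control and 3046, 3118, 2801 and 2786 bases in diabetes, without overlap (exact permutation p = 0.0571, adjusted p = 0.0914). Many pathways hold mostly short or mostly long genes, so the medians of most lists below are also given after the trend of each library's levels on transcript length was taken out. This was done with a trend drawn from all genes of known length (the all-gene trend) and with a trend drawn only from genes of at least 10 CPM (the 10 CPM trend), which was chosen after the data were seen. The 2 corrections gave different answers for lists of short genes, and where a pair of corrected values is printed the all-gene trend comes first. Counts of list members at an unadjusted p under 0.05 are to be read beside 4.79% higher and 7.48% lower over all genes tested. In the shortest bin 23.2% were higher, and in the longest bin 18.7% were lower. These bins were not matched to any list in length or level, so they are a rough guide only. With the protein-coding genes binned by mean level instead, 0.43% were higher in the lowest bin and 14.1% in the highest. What makes short transcripts weigh more in these libraries was not tested.

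**Figure D3:**
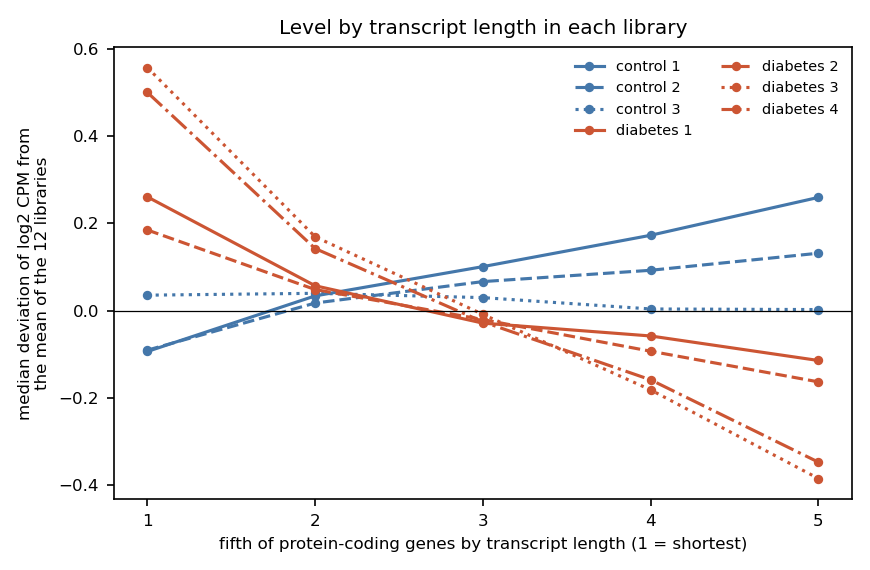
Median deviation of log2 CPM from the mean of the 12 libraries, for protein-coding genes in 5 bins of transcript length from shortest to longest, with 1 line per library. The diabetes lines fall from between 0.18 and 0.56 to between -0.11 and -0.38, while control replicates 1 and 2 climb.

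How many genes passed depended on which libraries were in the fit, which also changed the genes kept by the filter and the scaling. With the 7 control and diabetes libraries alone, 285 genes passed as higher (1.39%) and 57 as lower (0.277%) of 20554, all 4 genes above among them. Of these 342 genes, 341 did not overlap between groups. They were picked by p from the same libraries, so this adds no support to the calls. Over the 25562 genes tested, 5.78% were higher and 8.94% lower without overlap. In the fit of 7 libraries, leaving out 1 library gave from 1 gene (without control replicate 1) to 621 genes (without diabetes replicate 2) called higher. The number called lower ran from 0 to 172. With the all-gene trend removed as well, 26 genes passed as higher and 1 as lower. With the 10 CPM trend removed instead, 5 genes passed as higher and 0 as lower: Cartpt (log2 change 1.42, edgeR adjusted p = 0.0131), Bola2 (1.47, 0.0131), Ndufb7 (1.44, 0.0249), Junb (1.70, 0.0379) and Ndufb2 (1.49, 0.0379), of which Ndufb7 and Ndufb2 were named after their values were seen. For 3 of them the length used may be too great. Bola2, Ndufb7 and Ndufb2 were given 3796, 4435 and 4371 bases, whereas their shortest annotated protein-coding transcripts have 642, 623 and 455. Junb has 1 protein-coding transcript, of 1809 bases, and the 2 of Cartpt have 827 and 1238, so their lengths are not in question in this way. In the 12-library model the 2 corrections went opposite ways. With the all-gene trend removed edgeR called 177 genes higher and 4 lower, the 4 genes above among the 177, and Junb was at 1.92 (adjusted p = 0.00557). With the 10 CPM trend removed it called 0 in either direction (775 higher and 1622 lower at an unadjusted p under 0.05), and Junb was at 1.71 (adjusted p = 0.0821).

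**Figure D4:**
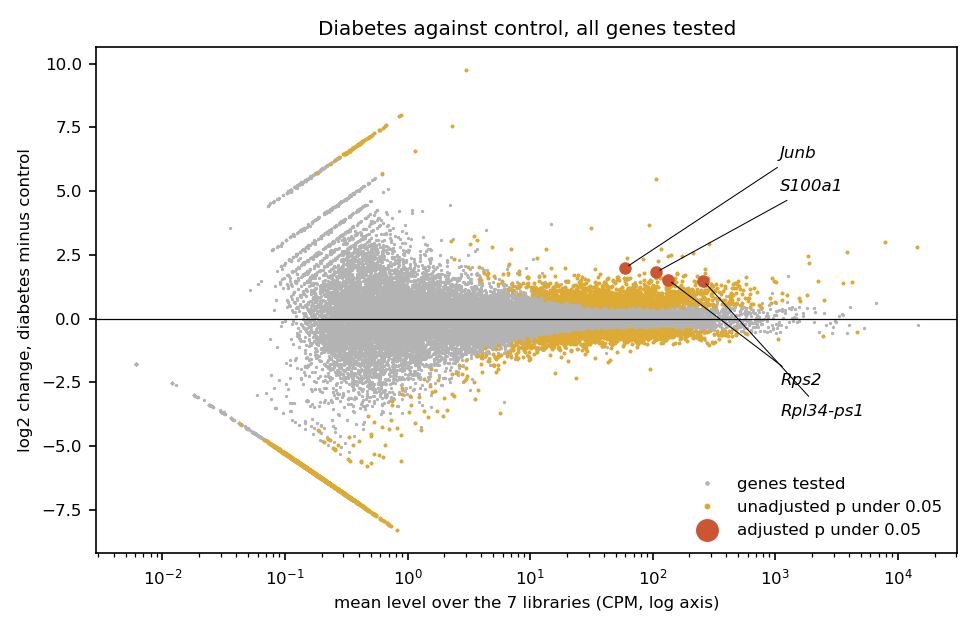
Log2 change of diabetes over control against mean CPM over the 7 libraries (log axis) for the 25562 genes tested, with genes at an unadjusted p under 0.05 in yellow. The 4 genes with an adjusted p under 0.05 are labelled and lie at log2 changes of 1.49 to 1.99.

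Beyond Junb, the immediate early genes, which code for transcription factors and other proteins made soon after a neuron fires, mostly had higher levels in diabetes. Of 26 tested, 1 passed, 9 were higher and 1 was lower at an unadjusted p under 0.05, and 10 were higher without overlap (38.5%, against 5.78% of all genes tested; 0 were lower without overlap, against 8.94%). Their median log2 change was 0.87, with 0.91 and 0.77 after the all-gene and the 10 CPM length correction. Fos, the partner of Junb in AP-1, was at 15.2, 25.9 and 28.8 CPM in control and 53.7, 97.0, 53.5 and 84.4 CPM in diabetes (log2 change 1.63 ± 0.36, edgeR adjusted p = 0.122). Every diabetes library was above every control. Egr1, a zinc-finger factor of the same class, was at 51.5, 55.9 and 64.2 against 113, 123, 96.7 and 88.5 CPM, also without overlap (0.88 ± 0.24, adjusted p = 0.183). Npas4, a factor induced by calcium entry into neurons, went the other way, at 13.8, 14.8 and 27.5 CPM against 7.88, 16.7, 9.92 and 6.87 CPM, and its groups overlapped (-0.85 ± 0.39, adjusted p = 0.393). Egr1 and Npas4 were named after their values were seen.

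The genes that glucocorticoids induce gave a similar picture with fewer members. Of 16 tested, 0 passed, 6 were higher (37.5%, against 4.79% of all genes tested) and 0 lower at an unadjusted p under 0.05. The median was 0.58 (0.77 and 0.43 after the length corrections). Mt1, a metallothionein that binds zinc and copper, was at 248.8, 289 and 135 CPM in control and 431, 504, 546 and 589 CPM in diabetes (1.21 ± 0.27, edgeR adjusted p = 0.122). Cebpd, a leucine-zipper factor of acute responses, was at 6.25, 0.940 and 2.45 CPM against 19.6, 9.69, 30.0 and 25.7 CPM (2.72 ± 0.60, adjusted p = 0.122). Both were higher in every diabetes library, and both were picked for the smallest p in the list. Fkbp5, the first gene of the list, hardly differed and its groups overlapped (0.07 ± 0.35, adjusted p = 0.993). Of the 16 log2 changes, 15 were positive and 1 negative. The median deviation of the members from their own mean log2 CPM was 0.11, -0.28 and -1.02 in control replicates 1 to 3. In diabetes it was 0.297 to 0.704, so control replicate 3 stood lowest.

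Genes of antigen presentation by MHC class I let cells display peptides from their own cytosol. Of 13 tested, 3 were higher (23.1%, against 4.79% of all genes tested) and 0 lower at an unadjusted p under 0.05. Their median was 0.68 (0.75 and 0.60 after the length corrections). H2-D1, a heavy chain, was at 50.5, 43.6 and 50.7 CPM against 90.9, 88.2, 115 and 100.4 CPM (1.03 ± 0.25, edgeR adjusted p = 0.141). H2-K1, another heavy chain, was at 22.1, 27.7 and 23.3 against 30.8, 36.9, 56.7 and 68.9 CPM, highest in diabetes replicates 3 and 4 (0.99 ± 0.28, adjusted p = 0.206). Neither gene overlapped between groups. The list's score in a library, the median deviation of its members from their own mean log2 CPM, was -0.26 in diabetes replicate 1 and 0.39 to 0.45 in the other diabetes libraries. The controls scored -0.02, -0.33 and -0.11, so diabetes replicate 1 lay within their range.

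The nuclear genes of the respiratory chain had higher levels in diabetes for the most part, by an amount that depended on the length correction. Of 37 subunits of complex I, which takes electrons from NADH, 24 were higher and 0 lower at an unadjusted p under 0.05, and 0 passed. The summed level was 2927 to 3089 CPM in control and 4084 to 6669 CPM in diabetes. Their median log2 change was 0.86. It was 0.79 with the all-gene trend removed, 0.25 with the 10 CPM trend removed and 0.44 with the all-gene trend removed in the fit of 7 libraries. Their median transcript is 1005 bases long. Of all genes in the shortest bin, 23.2% were higher at that p, against 64.9% of these subunits. That bin has a median transcript of 1472 bases and was not matched to the subunits in length or level. Whether the subunits exceed genes of the same length and level was not tested. Ndufs8, an iron-sulfur subunit, was at 77.0, 93.4 and 61.8 CPM against 176, 157, 259 and 256 CPM (1.45 ± 0.28, edgeR adjusted p = 0.0791). Of 38 subunits of complexes II to V, 18 were higher (47.4%) and 0 lower, with a median of 0.70 (0.62 and 0.26 after the length corrections). Atp5mf, of the ATP synthase, was at 134, 157 and 154 against 350, 275, 353 and 463 CPM (1.28 ± 0.25, adjusted p = 0.0791). In both genes diabetes replicate 2 was the lowest of its group.

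The 13 protein genes of the mitochondrial genome did not share that pattern. None were higher and 2 were lower (15.4%, against 7.48% of all genes tested) at an unadjusted p under 0.05. The median was -0.26, or -0.33 and -0.93 after the length corrections. Mt-Nd4l, a small complex I subunit, was at 430, 353 and 472 CPM in control against 195, 381, 95.0 and 215 CPM in diabetes, where replicate 2 lay within the control range (mt-Nd4l: -0.92 ± 0.31, edgeR adjusted p = 0.282). Mt-Nd5, a long one, was at 3102, 2752 and 3525 against 1668, 2733, 1408 and 2107 CPM, each below every control (mt-Nd5: -0.66 ± 0.25, adjusted p = 0.323). Mitochondrially encoded genes took 5.12 to 7.40% of all counts in control and 3.87 to 6.00% in diabetes (exact permutation p = 0.457).

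Proteins that serve the mitochondrion were nearer to the nuclear subunits. Of 51 mitochondrial ribosomal proteins, 26 were higher and 0 lower at an unadjusted p under 0.05 (median 0.61, and 0.63 and 0.29 after the length corrections). Mrpl54 was at 25.5, 28.4 and 26.1 CPM against 64.2, 50.1, 135 and 77.6 CPM (1.61 ± 0.36, edgeR adjusted p = 0.122). Of 19 genes of mitochondrial import, 8 were higher (42.1%) and 0 lower, with a median of 0.56 (0.57 and 0.37). Timm8b, a small chaperone of the space between the membranes, was at 54.9, 61.4 and 61.4 against 134, 119, 140 and 182 CPM (1.28 ± 0.24, adjusted p = 0.0791). Neither overlapped between groups.

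Cytosolic ribosomal proteins, which are short and abundant, gave medians that depended on the length correction. Over all genes tested 4.79% were higher at an unadjusted p under 0.05, and in the bin of shortest genes 23.2%. Of 46 in the large subunit, 16 were higher (34.8%) and 0 lower at that p. Their median of 0.49 became 0.39 with the all-gene trend removed and -0.08 with the 10 CPM trend removed. Of 31 in the small subunit, 14 were higher (45.2%) and 0 lower, with a median of 0.58 that became 0.52 and 0.02. Rps2 was the 1 member that passed. Rplp1, a stalk protein of the large subunit, was at 213, 247 and 277 CPM in control and 545, 429, 719 and 895 CPM in diabetes (1.40 ± 0.34, edgeR adjusted p = 0.142). Rps14 was at 89.2, 142 and 161 against 344, 304, 465 and 267 CPM (1.40 ± 0.31, adjusted p = 0.122). Of 135 pseudogenes named for such proteins, 48 were higher (35.6%) and 0 lower, with a median of 0.68.

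The proteasome, which cuts proteins tagged with ubiquitin, also had many members at higher levels. Of its 31 subunits, 17 were higher (54.8%) and 0 lower at an unadjusted p under 0.05. The share higher was 4.79% of all genes tested and 23.2% of the bin of shortest genes. The median of the subunits was 0.52, or 0.49 and 0.09 after the length corrections. Psmb6, a catalytic subunit, was at 107, 106 and 124 CPM against 220, 197, 340 and 269 CPM (1.19 ± 0.26, edgeR adjusted p = 0.122). Psma7 was at 97.9, 94.0 and 81.8 against 162, 151, 227 and 214 CPM (1.05 ± 0.24, adjusted p = 0.125). Among 23 antioxidant genes, 9 were higher (39.1%) and 0 lower, with a median of 0.28 (0.24 and 0.04). Gstm5, a glutathione transferase, was at 125, 139 and 99.0 against 231, 194, 269 and 210 CPM (0.90 ± 0.27, adjusted p = 0.234).

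The S100 family, to which S100a1 belongs, had 6 of 10 tested members higher (60%) and 0 lower at an unadjusted p under 0.05. The share higher was 4.79% of all genes tested and 23.2% of the bin of shortest genes. The median of the family was 0.83 (0.72 and 0.23 after the length corrections). S100a1 itself was at 1.75 with the all-gene trend removed (edgeR adjusted p = 0.00557) and at 1.05 with the 10 CPM trend removed (adjusted p = 0.0848). Its median over annotated protein-coding transcripts is 627 bases.

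Several genes of other roles came close to the threshold at higher levels. Ly6h, a membrane-anchored protein that lowers the surface level of nicotinic receptors, was at 455, 499 and 508 CPM in control and 1144, 866, 2203 and 1245 CPM in diabetes (1.48 ± 0.29, edgeR adjusted p = 0.0791). Its change was 1.58 with the all-gene trend removed (adjusted p = 0.0127) and 1.41 with the 10 CPM trend removed (adjusted p = 0.0821). Ramp1, the partner that turns the calcitonin-like receptor into a receptor for CGRP, was at 56.7, 73.7 and 35.3 against 151, 115, 216 and 186 CPM (1.60 ± 0.31, adjusted p = 0.0791), and at 1.62 and 1.43 after the length corrections (adjusted p = 0.00936 and 0.0821). Nenf, a secreted neurotrophic factor, was at 69.8, 59.9 and 70.9 against 174, 130, 321 and 282 CPM (1.76 ± 0.34, adjusted p = 0.0791). In all 3, diabetes replicate 2 was nearest to the controls. Also higher without overlap, with the same adjusted p of 0.0791, were Bola2 (1.37 ± 0.27), a partner of glutaredoxins in iron-sulfur cluster delivery, Grcc10 (1.63 ± 0.32) and Use1 (1.25 ± 0.25), a SNARE protein of the endoplasmic reticulum.

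None of the genes at lower levels in diabetes passed, and those of smallest p included signalling proteins and RNA-binding proteins. Necab1, a calcium-binding protein of subsets of neurons, was at 72.5, 46.7 and 44.2 CPM in control and 16.9, 22.3, 17.5 and 18.3 CPM in diabetes (-1.54 ± 0.29, edgeR adjusted p = 0.0791). The groups did not overlap, and after the length corrections the change was -1.25 (adjusted p = 0.0204) and -1.29 (adjusted p = 0.0848). Adcy1, an adenylyl cyclase that calcium switches on, was at 108, 67.3 and 45.2 against 34.02, 17.5, 26.5 and 17.8 CPM (-1.62 ± 0.37, adjusted p = 0.125). Hspa12a, a distant member of the heat shock 70 family, was at 134, 131 and 91.9 against 69.1, 67.7, 55.8 and 51.9 CPM (-0.96 ± 0.22, adjusted p = 0.125). The group also held Pnisr (-0.96 ± 0.22, adjusted p = 0.125) and Tia1 (-0.92 ± 0.24, 0.152), both RNA-binding proteins of splicing, and Mdm4 (-0.98 ± 0.24, 0.142), an inhibitor of p53.

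Some of the lower genes mark neighbouring brain regions. Prkcd, a protein kinase C strongly made in thalamus, was at 91.9, 19.4 and 20.3 CPM in control against 6.57, 5.35, 8.88 and 14.3 CPM (-2.32 ± 0.47, edgeR adjusted p = 0.0927), with control replicate 1 above every other library. Zic1, a transcription factor of thalamus, septum and cerebellum, was at 99.2, 65.6 and 69.6 against 25.3, 43.1, 22.98 and 33.4 CPM (-1.32 ± 0.31, adjusted p = 0.125). Of 15 thalamic markers, 7 were lower (46.7%, against 7.48% of all genes tested) and 0 higher at an unadjusted p under 0.05. Their summed level was 1160 to 1650 CPM in control and 900 to 1182 CPM in diabetes, and their median was -0.72 (-0.37 and -0.40 after the length corrections). Of 13 markers of cortex, hippocampus and striatum, 2 were lower (15.4%) and 0 higher, with a median of -0.54 (-0.35 and -0.39). Their summed level overlapped, at 134 to 175 CPM in control and 127 to 172 CPM in diabetes. The median turned positive when only genes of at least 10 CPM were kept, as given below. The share of neighbouring tissue in the dissections was not measured in another way, and in bulk tissue fewer cells of a kind and less RNA per cell cannot be told apart, here or for any gene above.

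Among receptors and channels of neurons, most of which have long transcripts, the shares at lower levels are set here beside 3 others. These are 7.48% of all genes tested, 5.43% of those that average at least 1 CPM and 18.7% of the bin of longest genes. Of 34 subunits of glutamate and GABA receptors, 8 were lower (23.5%) and 0 higher at an unadjusted p under 0.05, with a median of -0.30 that became 0.01 and -0.04 after the length corrections. Gabbr2, a subunit of the metabotropic GABA receptor, was at 278, 199 and 140 CPM in control and 123, 97.0, 79.98 and 109 CPM in diabetes (-1.01 ± 0.27, edgeR adjusted p = 0.180). Of 22 voltage-gated potassium channel genes, 3 were lower (13.6%, below the share in the longest bin) and 0 higher, and the median went from -0.33 to 0.09 and 0.05. Kcnq3, of the M-current that damps firing, was at 89.2, 81.4 and 65.6 against 51.1, 44.6, 38.03 and 43 CPM (-0.83 ± 0.27, adjusted p = 0.273). Of 26 very long neuronal genes, 12 were lower (46.2%) and 0 higher (median -0.49, then -0.13 and -0.16), among them Ptprd, a receptor phosphatase of synapse formation, at 162, 132 and 160 against 98.2, 78.0, 75.6 and 97.3 CPM (-0.79 ± 0.21, adjusted p = 0.176). In these 3 genes every diabetes library was below every control. Of 11 noncoding RNAs that stay in the nucleus, 4 were lower (36.4%) and 0 higher, with a median of -0.50 that became -0.02 and -0.05.

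The arcuate nucleus reads insulin through a pathway of which 28 genes were tested. At an unadjusted p under 0.05, 7 were lower and 0 higher, and 0 passed. The share lower was 25%, against 7.48% of all genes tested and 18.7% of the bin of longest genes. The pathway's genes are long, with a median transcript of 6536 bases. Their median log2 change of -0.29 became 0.09 and 0.02 after the length corrections. Insr, the receptor itself, was at 60.5, 45.7 and 47.6 CPM in control and 37.8, 42.4, 29.3 and 29.2 CPM in diabetes (-0.56 ± 0.27, edgeR adjusted p = 0.407). Tsc1, which holds back mTOR, was at 89.6, 95.3 and 100.4 against 61.5, 74.0, 40.1 and 65.1 CPM (-0.66 ± 0.25, adjusted p = 0.328). Neither overlapped between groups. Of 11 genes of leptin signalling, 1 was lower (9.09%, near the 7.48% of all genes tested) and 0 higher, with a median of -0.18 (0.06 and -0.04).

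Downstream of those hormones, the appetite-lowering peptides stood higher in diabetes. Cartpt, the precursor of the Cart peptides, was at 84.0, 98.6 and 118 CPM in control and 295, 322, 516 and 434 CPM in diabetes (1.97 ± 0.47, edgeR adjusted p = 0.135), without overlap. Pomc, the precursor of melanocortins, was at 50.3, 60.3 and 68.7 against 171, 238, 343 and 1089 CPM (2.94 ± 0.83, adjusted p = 0.201). Its highest value was in diabetes replicate 4. There Gh, growth hormone, was at 732 CPM and at 0 in the other diabetes libraries, against 3.67, 0 and 8.43 CPM in control. Cga, the shared subunit of pituitary glycoprotein hormones, was at 0, 1.69, 0 and 19.4 CPM in diabetes and at 0 in the controls. Pitx1, a transcription factor of the pituitary, named after its values were seen, was at 1.27, 5.91, 0 and 8.89 CPM in diabetes and at 0.04, 0 and 0 CPM in control, so pituitary markers were not limited to replicate 4. Of 8 pituitary markers tested, 4 were higher (50%, against 4.79% of all genes tested) and 0 lower at an unadjusted p under 0.05, 1 of them without overlap. Their median log2 change was 2.52 (2.48 and 2.10 after the length corrections) and 1.28 in the fit of 7 libraries. They summed to 317 to 331 CPM in control and 361 to 1490 CPM in diabetes. Pomc is made in the pituitary as well as in the arcuate nucleus, and the part of pituitary tissue in its level was not tested.

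Markers of blood, meninges and glia differed by library. Hbb-bs, a beta globin, was at 39.3, 19.8 and 58.0 CPM in control and 82.1, 127, 136 and 528 CPM in diabetes (2.48 ± 0.68, edgeR adjusted p = 0.183). Blood markers summed to 94.0 to 198 CPM in control and 264 to 1767 CPM in diabetes. Of 8 tested, 5 were higher (62.5%, against 4.79% of all genes tested) and 0 lower at an unadjusted p under 0.05. Their median was 2.14 (2.09 and 1.51 after the length corrections). Meningeal markers summed to 31.9 to 90.4 CPM and 31.3 to 267 CPM. Dcn, decorin, of meningeal fibroblasts, was at 9.92, 7.19 and 4.35 against 5.76, 34.6, 12.1 and 62.3 CPM, with the groups overlapping.

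Astrocyte genes were low in control replicate 3. Slc1a3, a glutamate transporter of astrocytes, named after its values were seen, was at 554, 651 and 138 CPM in the controls and 453, 400.5, 501 and 508 CPM in diabetes. Apoe, the lipid carrier that astrocytes secrete, was at 2670, 2753 and 974 CPM against 5511, 3882, 8081 and 5867 CPM, so every diabetes library was above every control (1.45 ± 0.37, edgeR adjusted p = 0.151). Of 18 astrocyte markers, 4 were higher (22.2%, against 4.79% of all genes tested) and 0 lower at an unadjusted p under 0.05. Their median was 0.37 (0.50 and 0.29 after the length corrections). Microglial markers went both ways, 3 of 17 higher (17.6%) and 1 lower (5.88%, against 7.48% of all genes tested), with a median of 0.18 (0.19 and -0.03). Cx3cr1, the fractalkine receptor of resting microglia, was at 28.7, 33.9 and 39.9 against 17.2, 20.6, 11.0 and 31.8 CPM (-0.76 ± 0.31, adjusted p = 0.347). C1qb, of complement, was at 42.4, 41.7 and 27.4 against 64.0, 40.95, 78.2 and 95.1 CPM (0.90 ± 0.29, adjusted p = 0.272). Both overlapped between groups.

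**Figure D5:**
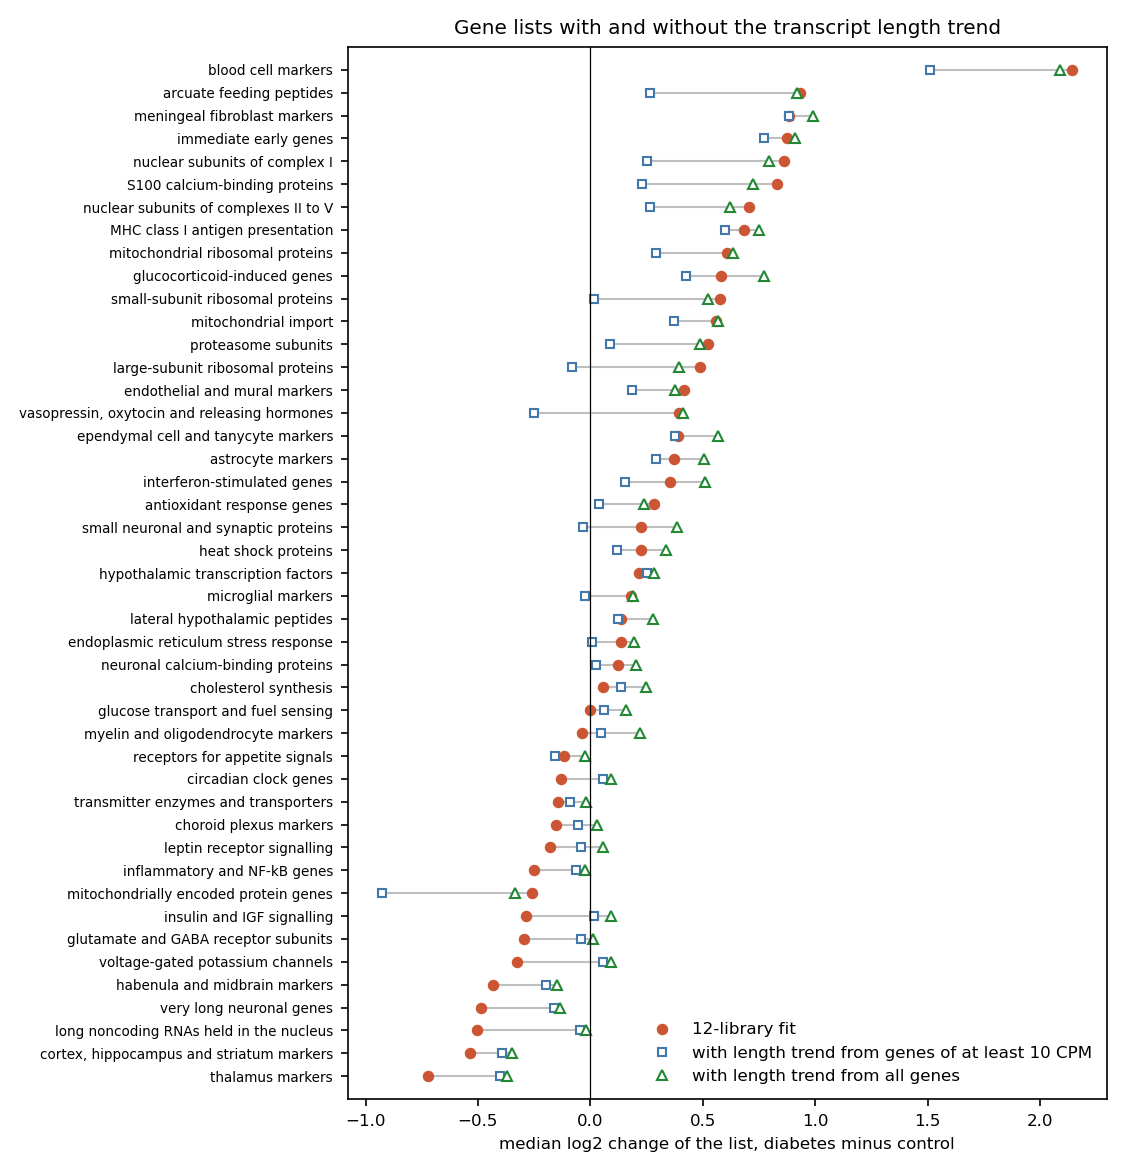
Median log2 change of diabetes over control for 45 gene lists in the 12-library model (filled points), with the length trend from all genes removed (triangles) and with the trend from genes of at least 10 CPM removed (squares), without the pituitary list. The complex I list stands at 0.79 by the triangle and 0.25 by the square and the proteasome list at 0.49 and 0.09, while the immediate early list is at 0.91 and 0.77.

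Bc1 (ENSMUSG00000115783), a noncoding RNA of 168 bases that neurons carry into dendrites to hold back translation, was the most abundant gene with a symbol among those higher in diabetes that are described here. It was named after its values were seen. It stood at 1265, 2154 and 1295 CPM in the controls and at 17281, 10192, 11002 and 11840 CPM in diabetes. Every diabetes library was far above every control. The log2 change was 3.00 ± 0.68, with an edgeR adjusted p of 0.125 in the 12-library model and 0.000659 with the 7 libraries alone. In the other libraries of the study it ranged widely, at 1372, 1304 and 9339 CPM with curcumin and 311 and 2558 CPM with garlic extract. As one of the shortest transcripts counted it lies at the end of the length gradient, and its change was 3.55 with the all-gene trend removed (adjusted p = 0.0214) and 1.93 with the 10 CPM trend removed (adjusted p = 0.379). A still more abundant transcript, ENSMUSG00000119584, named after its values were seen and without a symbol in the tables used, averaged 14452 CPM over the 7 libraries, with a log2 change of 2.81 ± 0.65 (edgeR adjusted p = 0.125).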

How the data were processed

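The authors deposited 1 table of raw read counts per Ensembl gene ID, made with FastQC and featureCounts on GRCm39, per the submitters' processing notes; the sources used here give no aligner, annotation or strand setting. Symbols and transcript lengths came from GENCODE M21 and RefSeq tables (65.7% of IDs and 97.8% of counts named; lengths for 85.6% of tested genes). Genes were filtered with filterByExpr by group, scaled by TMM, and the 12 libraries were fitted with edgeR 4.0.16 (quasi-likelihood, R 4.3.3; biological coefficient of variation 0.808), with Benjamini-Hochberg adjustment at 0.05. The test was also run on simulated counts. These held neither the length gradient nor the shortage of genes at low counts, so it was not checked against those. Alternatives used DESeq2 1.42.0, limma 3.58.1, other filters and scalings, fewer libraries, and offsets from a smooth trend of log2 CPM on transcript length. Single library values were compared by exact permutation tests.

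Genes named are those that passed; the 12 of smallest p per direction that average at least 1 CPM and have a proper symbol; the first member and the 2 of smallest p per list; and the 6 with most counts among genes absent from a group. The text names fewer where space asked, and says where a gene was named after its values were seen. The 46 lists, with 920 of 921 members matched, and the comparison itself were chosen with earlier results of these data known, so no p over a list is given. Deviations of same-numbered control and diabetes libraries correlated at r = 0.053, 0.002 and 0.029, and those of differently numbered libraries at -0.128 to 0.106. These values cannot decide whether the numbers pair libraries.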

Additional observations from a re-analysis of the deposited data

Results flagged for a closer look

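In 135 sets of 4 diabetes values tested for a library that stands apart (a gap above Dixon's critical value), 6 were found. Chance alone marks about 1 set in 20, so the total is no more than that rate gives. The sets also share the same libraries and are not independent. Diabetes replicate 4 accounted for 4 of them: Gh at 732 CPM, with 0 in the other diabetes libraries; Cga, the shared subunit of pituitary glycoprotein hormones, at 19.4 CPM, with 0 to 1.69 in the others; Hbb-bs at 528 CPM, with 82.1 to 136 in the others; and Hba-a2, an alpha globin, at 503 CPM, with 77.0 to 148 in the others.

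The score of the receptors for appetite signals was 0.41 in diabetes replicate 3 and between -0.21 and -0.12 in the other diabetes libraries. The score of the MHC class I list was -0.26 in diabetes replicate 1 and between 0.39 and 0.45 in the others.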

How the results depend on the processing

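Of 4 genes called higher and 0 lower, the counts became 285 and 57 with only the 7 libraries, 359 and 109 with no filter on low counts, 465 and 49 by DESeq2 (14881 genes without an adjusted p), 724 and 453 by limma-voom with library weights, 177 and 4 with the transcript length correction, and 91 and 11 without curcumin replicate 2. Each of these called the same 4 genes. The stricter filter and the covariate for detected genes gave 0 and 0 (2071 and 3335 genes at an unadjusted p under 0.05), and the length trend from genes of at least 10 CPM gave 0 and 0. RLE scaling and robust spread each gave 6 and 0. Leaving out 1 of the 7 libraries gave 0 to 1 higher and 0 lower. With only the 7 libraries, leaving out 1 gave 1 to 621 higher and 0 to 172 lower, namely 1 and 0 without control replicate 1, 2 and 0 without 2, 103 and 36 without 3, and 80 and 7, 621 and 172, 5 and 0, and 13 and 0 without diabetes replicates 1 to 4. At a mean of at least 10 CPM those libraries gave 627 and 188, and with the length correction 26 and 1. The cause of these shifts was not tested.

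The replicate block left 1 gene higher, none of the 4, and 0 lower. Whether the numbers pair the libraries is not known.

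Medians changed sign for insulin and IGF signalling (0.090 with the length correction, 0.056 in the 7 libraries, and 0.017 and 0.020 with the trend from genes of at least 10 CPM), for potassium channels (0.093, 0.067, 0.055 and 0.053), for large-subunit ribosomal proteins with that trend (-0.080 and -0.088), for leptin signalling (0.056) and glutamate and GABA receptors (0.013) with the length correction, for mitochondrially encoded genes with the covariate (0.45), and for cortex, hippocampus and striatum markers at 10 CPM or more (0.26 and 0.22). They also did so for clock genes (0.091 and 0.066 with the length correction, 0.056 and 0.055 with the 10 CPM trend, 0.061 with the covariate), for vasopressin, oxytocin and releasing hormones (-0.053 in the 7 libraries with the length correction, -0.25 and -0.27 with the 10 CPM trend, -1.33 with the covariate), for small neuronal proteins with the 10 CPM trend (-0.032 and -0.044), and with the length correction for myelin genes (0.22) and glucose transport (0.16). The covariate also turned lateral hypothalamic peptides (-1.36), hypothalamic transcription factors (-2.12), inflammatory genes (0.55), cholesterol synthesis (-0.082), glucose transport (0.26) and myelin genes (0.76), and the replicate block endothelial markers (-0.34). Habenula markers turned in the 7 libraries (0.022), there also with the length correction (0.0053) and at 10 CPM or more (0.77), and with the covariate (0.82). The 10 CPM trend took microglial markers to -0.026 and -0.038, less than the spread between libraries from their value in the 12-library model. Single omissions gave -0.10 to 0.15 for cholesterol synthesis and -0.037 to 0.17 for endoplasmic reticulum stress, turned without control replicate 3 (-0.15 and -0.082 in the 7 libraries), -0.28 to 0.25 for choroid plexus markers, turned without control replicate 2 (0.19 in the 7 libraries), and -0.66 to 0.36 for habenula markers, turned without control replicate 1 (0.37 in the 7 libraries, where diabetes replicates 1, 3 and 4 gave 0.10, 0.11 and 0.12). Detected genes averaged 29133 in control and 20955 in diabetes, and 30565 and 21148 at full depth. Alternatives added after the data were seen are the 10 CPM filters, that length trend and the single omissions within the 7 libraries. Counting limits the genes below about 10 reads, where the diabetes libraries hold few values.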

Other observations

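Lists not described above had medians between -0.43 and 0.42, over 19 lists, and no member of them passed the test. Among them, 1 of 23 hypothalamic transcription factors was higher and 0 lower at an unadjusted p under 0.05, with a median log2 change of 0.21 (0.28 with the length trend from all genes removed and 0.25 with that from genes of at least 10 CPM removed, the order kept below). Of 19 myelin and oligodendrocyte genes, 0 were higher and 0 lower, with a median of -0.04 (0.22 and 0.05), and their summed level was 6061 to 8339 CPM in control and 5876 to 7727 CPM in diabetes. Of 25 small neuronal and synaptic proteins, 9 were higher and 0 lower, with a median of 0.23 (0.38 and -0.03). Circadian clock genes had 0 of 19 higher and 2 lower (median -0.13, then 0.09 and 0.06). Cholesterol synthesis had 3 of 23 higher and 0 lower (median 0.05, then 0.25 and 0.14). Inflammatory and NF-kB genes had 1 of 16 higher and 3 lower (median -0.25, then -0.02 and -0.06). Over all genes tested, 4.79% were higher and 7.48% lower at an unadjusted p under 0.05.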
